A study of Mus musculus with 2 samples.

Results

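Granule neuron maturation markers are genes that dentate granule neurons switch on or off as they age. There were 8 of them here, among 33696 genes counted, and each was found by its symbol. Of these, 3 mark young granule neurons (Dcx, Igfbpl1 and Calb2) and 5 mark older ones (Calb1, Plk5, Tdo2, Lct and Dsp). They were read in nuclei with a Prox1 UMI (a counted molecule of that gene's RNA) and no Gad1 or Gad2 UMI, which gave 6074 of the 21783 control nuclei used and 5155 of 20569 in the other library. The libraries were made by single-nucleus RNA sequencing of mouse hippocampus at postnatal day 19. Control mice were homozygous for a floxed allele of Cic (Cicflox/flox), the gene of the repressor Capicua. The other mice were littermates with the same floxed alleles and Emx1-Cre, which recombines in the dorsal telencephalic lineage, so that interneurons and microglia come from outside it, and their library is labelled knockout. Each library pooled tissue of 3 mice (2 males, 1 female), with 1 hippocampus taken from each. With 1 library per group no difference could be tested, and all intervals are 95% intervals for counting error alone.

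Granule neurons of the dentate gyrus are born over a long period after birth, so that young and old ones lie side by side. A newborn granule neuron carries doublecortin and, for a short time, calretinin, and later loses both and gains calbindin, which fills its axon, the mossy fiber. Prox1 is the transcription factor of this lineage, and Gad1 and Gad2 make the transmitter of interneurons.

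Cic, the floxed gene, stood no lower with Emx1-Cre than without it. The gated nuclei held 653 control and 695 labelled knockout UMIs of Cic, or 11.5 and 17.1 CPM (the gene's UMIs scaled to the total of those nuclei), a log2 ratio of 0.57 (0.42 to 0.73). The 3′ counts do not tell transcripts with the floxed exons from those without, so every direction below is given for the library as labelled. The libraries held 314453640 and 252995761 UMIs, control first, and gated nuclei had medians of 8292.5 and 6581 UMIs. The libraries shared 175 barcodes, of which 39 control and 43 labelled knockout nuclei were in the gate.

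The gate held other cells too. Clusters with granule markers gave 65.6% and 66.1% of gated nuclei, control first, and clusters of the oligodendrocyte lineage 15.8% and 15.6%. A Prox1 UMI was found in 68.7% and 71.1% of oligodendrocyte-like nuclei, and in 10.4% and 8.86% of nuclei of the unnamed clusters 8 and 11, whose raised genes held 7 of 7 microglia markers. The 7 oligodendrocyte markers summed to 2871 and 3377 CPM in the gate, with none at 0. The 6 inhibitory markers, with Gad1 and Gad2 at 0 by the rule, summed to 841 and 999 CPM. The highest of them alone gave 833 and 990 CPM, and inhibitory-like nuclei were only 0.0823% and 0.116% of the gate. Granule-like clusters nevertheless carried 88.6% to 98.3% of the gate's UMIs of each late member and 79.1% to 88.4% of those of each early member. Gad1, the gene of a GABA-making enzyme, had a UMI in 39.0% of control and 44.7% of labelled knockout nuclei of the dentate granule-like clusters, against 1.74% and 1.35% in the microglia-marker clusters. In immature dentate granule-like nuclei the order was the other way, with a Gad1 UMI in 30.3% of control and 23.3% of labelled knockout nuclei. No Prox1 UMI was found in 6.25% and 8.06% of dentate granule-like nuclei and in 11.3% and 15.7% of immature ones. The gate kept 55.5% and 49.0% of dentate granule-like nuclei, and 59.9% and 62.7% of immature ones. Of all gated nuclei, 43.6% and 36.3% were dentate granule-like, control first, and 22.0% and 29.8% were immature ones. Their part in the gate's ratios is given below by a gate that ignores Gad1 and by ratios within classes.

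The sequences just upstream of the start sites are shown for 3 members whose ratios moved most, a young gene that was higher and 2 late genes that went opposite ways. Promoter sequence was taken from RefSeq on GRCm38.p6, while the counts were made on mm39 by the submitters' processing notes, and no position was converted. RefSeq promoters were found for 5 of the 8 members (Dcx, Plk5, Tdo2, Lct and Dsp). The 250 bases before the start are chrX:143933220-143933469 on the minus strand for Dcx, chr10:80356209-80356458 on the plus strand for Plk5 and chr3:81975729-81975978 on the minus strand for Tdo2. Capitals mark a TATAAA match or a GC box (GGGCGG), each searched on both strands, where adjoining boxes run together.
Dcx: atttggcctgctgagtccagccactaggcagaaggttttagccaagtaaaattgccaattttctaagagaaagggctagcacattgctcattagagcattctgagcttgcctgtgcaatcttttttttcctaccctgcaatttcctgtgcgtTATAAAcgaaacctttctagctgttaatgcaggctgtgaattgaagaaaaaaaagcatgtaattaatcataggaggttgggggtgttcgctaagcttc
Plk5: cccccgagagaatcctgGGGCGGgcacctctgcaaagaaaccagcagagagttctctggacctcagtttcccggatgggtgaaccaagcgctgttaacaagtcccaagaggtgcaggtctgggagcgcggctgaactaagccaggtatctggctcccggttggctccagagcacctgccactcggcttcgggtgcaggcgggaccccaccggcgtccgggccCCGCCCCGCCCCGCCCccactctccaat
Tdo2: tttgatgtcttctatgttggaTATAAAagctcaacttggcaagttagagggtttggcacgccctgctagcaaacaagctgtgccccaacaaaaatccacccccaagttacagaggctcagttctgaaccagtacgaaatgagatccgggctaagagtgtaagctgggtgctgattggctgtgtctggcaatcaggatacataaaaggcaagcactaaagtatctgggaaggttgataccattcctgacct

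Dcx held TATAAA at 98 bases before the start shown and Tdo2 at 229 bases, both on the transcribed sense strand, and 12.4% of all 32851 promoter windows of this length held one. RefSeq gives Dcx another start, with the window chrX:143933125-143933374, and the same TATAAA lies 193 bases before it. Plk5 held 4 GC boxes, at 233, 28, 23 and 18 bases before its start, and Dsp also held 4, with a GC box in 32.7% of all windows. The octamers TGAATGAA and TGAATGGA, which Capicua binds, were in none of the 5 members' windows and in 2.07% of all windows. The E-boxes CAGATG and CAGCTG (25.5% of all windows) and the ETS motif CCGGAAG (6.91%) were likewise in none of the 5. No match says only that these letters are not in these 250 bases.

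All 3 early members were higher in the gated nuclei of the library labelled knockout, by a median log2 ratio of 0.50, where the median over the 9244 genes with enough counts was 0.05. Dcx, doublecortin, a microtubule-binding protein of young and migrating neurons, had 3399 control and 3835 labelled knockout UMIs, or 60.0 and 94.6 CPM. Its log2 ratio was 0.66 (0.59 to 0.72), and the share of nuclei with a Dcx UMI was 30.4% against 40.9%. At least 3 Dcx UMIs were counted in 388 control and 418 labelled knockout nuclei, with a highest count of 9 and 12. Igfbpl1, which encodes a secreted relative of the insulin-like growth factor binding proteins, had 3811 and 3795 UMIs, or 67.3 and 93.6 CPM, a log2 ratio of 0.48 (0.41 to 0.54). Calb2, calretinin, a calcium-binding protein of young granule neurons, had 614 and 620 UMIs, or 10.8 and 15.3 CPM, a log2 ratio of 0.50 (0.33 to 0.66). UMIs of Igfbpl1 and Calb2 were thus almost equal in number, from 6074 control and 5155 labelled knockout nuclei. Those nuclei held 56667701 and 40530237 UMIs in all, so that CPM differed. Per gated nucleus Igfbpl1 had 0.627 and 0.736 UMIs and Calb2 0.101 and 0.120, control first.

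Late members were mostly lower, with a median log2 ratio of −0.40, and Tdo2 went the other way. Calb1, calbindin, the calcium buffer of mature granule neurons, had 5362 control and 2817 labelled knockout UMIs, or 94.6 and 69.5 CPM, a log2 ratio of −0.44 (−0.51 to −0.38). A Calb1 UMI was seen in 32.4% and 23.0% of gated nuclei, and nuclei with at least 3 Calb1 UMIs numbered 830 and 411. Dsp, desmoplakin, a protein of the desmosome plaque, had 2356 and 1278 UMIs, or 41.6 and 31.5 CPM, a log2 ratio of −0.40 (−0.50 to −0.30). Lct, lactase, a gut enzyme also transcribed in granule neurons, had 1174 and 678 UMIs, or 20.7 and 16.7 CPM, a log2 ratio of −0.31 (−0.45 to −0.17). Plk5, of the Polo-like kinase family, was the lowest of the 8 by ratio, with 321 and 105 UMIs, or 5.66 and 2.59 CPM, a log2 ratio of −1.12 (−1.46 to −0.81). No control nucleus had more than 4 Plk5 UMIs and no labelled knockout nucleus more than 2. Tdo2, tryptophan dioxygenase, which opens the kynurenine pathway, had 485 and 540 UMIs, or 8.56 and 13.3 CPM, a log2 ratio of 0.64 (0.46 to 0.82). The late members therefore did not move as a block.

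None of the 8 members met the rule of size, 2-fold or more with a minimum of 50 UMIs and 10 CPM on the higher side, which 113 of 9244 genes met (1.22%), 94 of them higher (1.02%) and 19 lower (0.206%). Plk5 passed 2-fold but stayed under 10 CPM. With median-of-ratios size factors 98 genes met the rule, 70 higher and 28 lower (71.4% higher, against 83.2% in CPM), and with TMM factors 100, 73 higher and 27 lower (73.0% higher). These factors shifted all ratios in the gate by −0.08 and −0.07 and turned no member's sign. In a sum over the gate, fewer nuclei of a type and less RNA per nucleus cannot be told apart.

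The direction of each of the 8 members was the same in nuclei called female, from 1 mouse per library, and in those called male, from 2. Dcx had a log2 ratio of 0.39 (0.28 to 0.51) in female and 0.83 (0.72 to 0.93) in male nuclei, from 69.5 and 52.1 CPM in the control to 91.4 and 92.3 CPM. Female and male nuclei thus differed in the control and lay close together in the library labelled knockout. Sex and mouse cannot be told apart here, and this difference was not tested. Lct in male nuclei was −0.15 (−0.35 to 0.04), an interval that holds 0. In a gate that asked only for Prox1 and no Gad2, chosen after the data were seen, the early median was 0.46 and the late median −0.21, with Calb1 at −0.30, Dsp at −0.21, Lct at −0.15, Plk5 at −1.08, Tdo2 at 0.79 and Dcx at 0.51. Calb1, Dsp and Lct lay nearer 0 there, while Plk5 and Tdo2 stayed within the intervals given above. When every nucleus was thinned to 5000 UMIs, which left out 1668 control and 2045 labelled knockout nuclei, the early median was 0.11, with Dcx at 0.42, Igfbpl1 at 0.11 and Calb2 at 0.03. Over whole classes, that depth left out 1375 of 2237 control and 1988 of 2449 labelled knockout immature dentate granule-like nuclei. It left out only 105 and 125 dentate granule-like nuclei, so the mix of nuclei changed with the depth.

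Granule-like nuclei that the gate left out gave the same signs with other sizes. In those nuclei Dcx had 71.1 and 88.7 CPM, a log2 ratio of 0.32 (0.23 to 0.40), against 74.2 and 119 CPM, 0.69 (0.61 to 0.76), in granule-like nuclei inside the gate. Calb1 had 138 and 121 CPM outside, −0.19 (−0.26 to −0.12), and 137 and 106 CPM inside, −0.37 (−0.44 to −0.30). Dcx and Calb1 thus lay nearer 0 outside the gate. Plk5 was −1.12 outside and −1.11 inside, and Tdo2 0.97 outside and 0.70 inside. Lct and Dsp outside were −0.02 (−0.16 to 0.12) and −0.05 (−0.15 to 0.05), intervals that hold 0. In gated nuclei of all other clusters Dcx had 633 control and 801 labelled knockout UMIs, or 32.6 and 52.9 CPM, 0.70 (0.54 to 0.85), whereas Igfbpl1 was 0.09 (−0.07 to 0.24). Part of the gate's Dcx difference was therefore counted in nuclei outside the granule-like clusters, which held 18.6% of its control Dcx UMIs and 20.9% of the labelled knockout's.

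**Figure D1:**
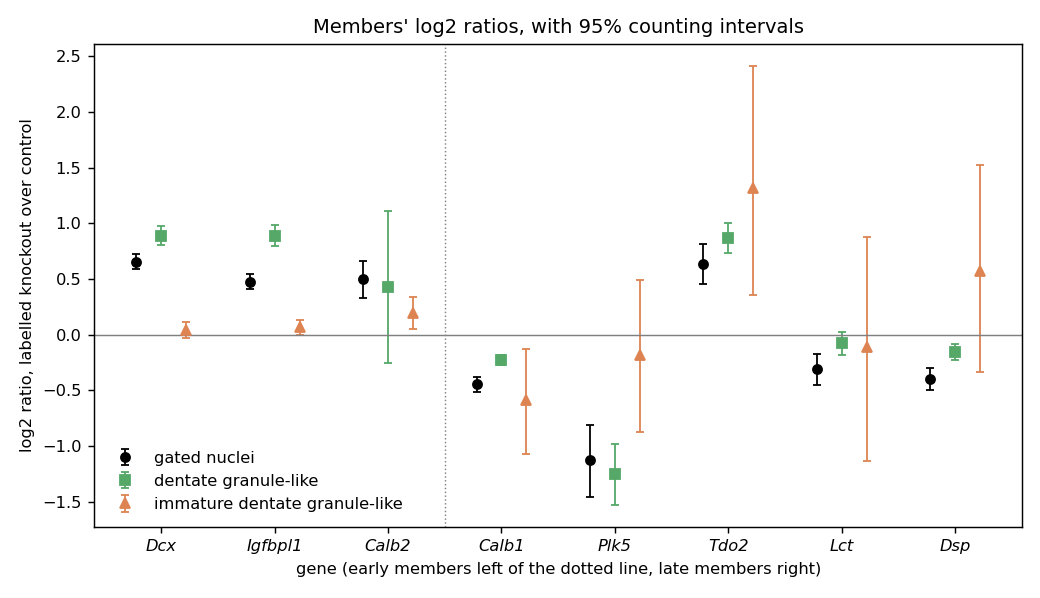
Log2 ratio of each member (y axis, labelled knockout over control, 95% counting intervals) in gated nuclei (circles), dentate granule-like nuclei (squares) and immature dentate granule-like nuclei (triangles). Dcx and Igfbpl1 lie near 0.9 in dentate granule-like and near 0 in immature nuclei, and in gated and dentate granule-like nuclei Plk5 lies lowest among late members and Tdo2 above 0.

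In the gate, other genes of young granule neurons lay mostly above 0 and other genes of older ones mostly below it. Both lists were chosen with earlier results of these data known, so their counts are no independent support. Immature nuclei were 22.0% of gated control and 29.8% of gated labelled knockout nuclei, and the part of this mix in the counts was not tested. Of 20 further genes of young granule neurons, 16 had enough counts in the gate, and 15 of these had a ratio above 0, with a median of 0.38, where 62.7% of all 9244 genes lay above 0. In this list 1 gene met the rule of size, Dpysl3, a collapsin response mediator protein of growing axons, at 55.5 and 114 CPM, a log2 ratio of 1.04 (0.97 to 1.10). Sdk2, an adhesion molecule of synapses, was the exception below 0, at −0.59 (−0.69 to −0.48). Of 16 further genes of older granule neurons all had enough counts, and 14 lay below 0, with a median of −0.50. The 4 that met the rule were Trpc6, a cation channel (196 and 53.7 CPM, −1.87), Ntng1, the axon adhesion protein netrin-G1 (175 and 77.4 CPM, −1.17), Mfsd4a, a membrane transporter (31.3 and 13.9 CPM, −1.17), and Rasgrp1, an activator of Ras (38.2 and 18.8 CPM, −1.02). C1ql2, a secreted synaptic protein, at 0.28 (0.10 to 0.46) and Camk1d, a calcium-dependent kinase, at 0.09 (0.05 to 0.13) lay above 0. Sdk2, C1ql2 and Camk1d were named after their values were seen. Sox11, Sox4, Neurod1, Draxin, Tubb3, Mex3a and Bhlhe22 in the young list and C1ql2 and Trpc6 in the older list were also used to name clusters. Outside the granule clusters the older genes again lay mostly below 0, and the young genes differed between classes. In inhibitory-like nuclei, which come from outside the Emx1 lineage, 8 of 10 young genes with enough counts lay above 0 (median 0.05) and 13 of 14 older genes below it (median −0.11), where 62.5% of all genes lay above 0 (median 0.04). In CA3 pyramidal-like nuclei 8 of 11 young genes lay above 0 (median 0.31) and 13 of 14 older genes below it (median −0.29), where 65.2% of all genes lay above 0 (median 0.07). The young genes Dpysl5 and Gap43 were past the rule of size there, higher in the library labelled knockout. Over all genes in this class, 108 of 8204 met it higher and 30 lower. In CA1 pyramidal-like nuclei 10 of 12 young genes lay above 0 (median 0.75, against 64.1% of all genes), with Sox11, Dpysl3 and Dpysl5 past the rule of size. There 12 of 14 older genes lay below 0 (median −0.19), with Smad3 past the rule. Over all genes in this class, 247 of 8150 met it higher and 85 lower. In CA2 pyramidal-like nuclei 7 of 8 young genes lay above 0 (median 0.43, against 59.2% of all genes), with Dpysl3 and Gap43 past the rule. There 11 of 13 older genes lay below 0 (median −0.29), with Ntng1 and Kcnip3 past the rule. Over all genes in this class, 145 of 6038 met it higher and 62 lower. In the gate, of 12 genes of handling and activity, 1 had enough counts, Btg2, at 0.12 (−0.02 to 0.25).

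**Figure D2:**
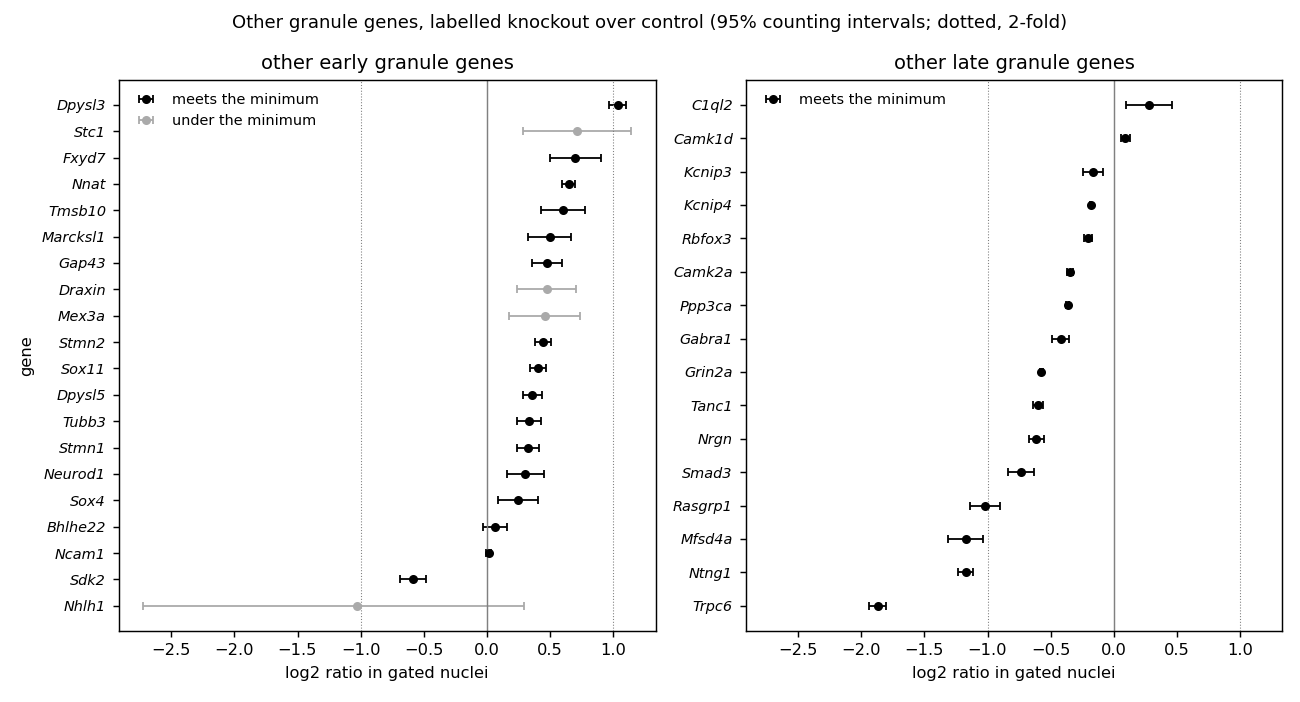
Log2 ratios in gated nuclei (x axis, labelled knockout over control, 95% counting intervals) for other genes of young (left) and older (right) granule neurons, with genes under the minimum counts in grey and dotted lines at 2-fold. Most young genes lie right of 0 and most older genes left of it, with Sdk2, C1ql2 and Camk1d among the exceptions.

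Within the classes, the early genes Dcx and Igfbpl1 were higher in dentate granule-like nuclei of the library labelled knockout, while in immature ones their intervals held 0. A second clustering, given below, split the dentate granule-like nuclei. In its cluster 3 (1441 control and 1950 labelled knockout nuclei) the Dcx interval held 0 too. In dentate granule-like nuclei, 4767 of the control and 3819 of the labelled knockout, Dcx had 32.5 and 60.2 CPM, a log2 ratio of 0.89 (0.80 to 0.98), and a UMI in 24.9% and 41.6% of nuclei. Igfbpl1 had 27.2 and 50.4 CPM there, a log2 ratio of 0.89 (0.79 to 0.98). In immature dentate granule-like nuclei, 2237 and 2449, Dcx had 293 and 301 CPM, 0.04 (−0.03 to 0.12), and Igfbpl1 358 and 375 CPM, 0.07 (−0.00 to 0.13). Calb2 had 73.4 and 83.8 CPM in immature nuclei, 0.19 (0.05 to 0.34), and only 39 and 38 UMIs in dentate granule-like nuclei, in 0.776% and 0.995% of them, against 0.671% and 0.338% in the microglia-marker clusters. Those clusters had median depths of 1253 to 2507.5 UMIs, with a Dcx UMI in 1.81% and 1.15% of nuclei and an Igfbpl1 UMI in 14.0% and 12.1%, a level that free RNA can give. In CPM Igfbpl1 stood at 69.2 and 73.5 in these shallow nuclei, above its dentate granule-like level, but per nucleus it had 0.152 and 0.133 UMIs there against 0.331 and 0.553. Subtracting their UMIs per nucleus from the gate left the early median at 0.59 and the late median at −0.37.

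Late members were carried by dentate granule-like nuclei. There Calb1 had 160 and 137 CPM, a log2 ratio of −0.23 (−0.27 to −0.18), Dsp 72.2 and 64.8 CPM, −0.16 (−0.23 to −0.09), and Lct 34.8 and 33.0 CPM, −0.08 (−0.18 to 0.02). All 3 ratios were nearer 0 than in the gate, and that of Dsp was 0.01 (−0.12 to 0.14) in female nuclei and −0.27 (−0.37 to −0.17) in male nuclei. Plk5 had 8.41 and 3.53 CPM, −1.25 (−1.53 to −0.98), and Tdo2 13.9 and 25.4 CPM, 0.87 (0.74 to 1.01). None of the 8 members met the rule of size in this class, where 263 of 8445 genes did (3.11%), nor in the immature class, where 28 of 9592 did (0.292%). In immature nuclei the late members had from 13 to 105 control UMIs and from 17 to 61 labelled knockout UMIs. Calb1 was seen in 4.16% and 2.33% of immature nuclei and in 3.62% and 1.62% of microglia-marker nuclei, and shares that close are read as background. Most dentate granule-like nuclei of the control were in cluster 2 (3192, against 69) and most of the library labelled knockout in cluster 5 (2049, against 319), with cluster 3 shared (1256 and 1701). Levels in this class therefore compare nuclei that clustered apart by library.

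A second clustering also left out the genes past 2-fold in the gate, and each granule cluster then held nuclei of both libraries. It gave 3 granule clusters, called here 1, 3 and 0 by their numbers. Cluster 1 carried the immature markers and the most Dcx, cluster 0 the least Dcx and the most Calb1, and cluster 3 lay between. Cluster 0 took 49.3% of the control's granule-like nuclei and 31.4% of the labelled knockout's, cluster 3 held 21.4% and 32.8%, and cluster 1 held 29.3% and 35.9%. The shares differed in the same direction in both sexes, from 46.3% to 29.7% in female and from 54.6% to 36.6% in male nuclei for cluster 0. Nuclei of the 3 clusters differed in depth, with medians from 3613 UMIs in cluster 1 of the library labelled knockout to 12555 in cluster 0 of the control, and no share was adjusted for it.

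In cluster 0, Calb1 was level over all nuclei while Dcx was not. Calb1 had 7506 and 4084 UMIs, or 174 and 174 CPM, a log2 ratio of −0.00 (−0.06 to 0.05). It was 0.08 (−0.03 to 0.18) in female and −0.10 (−0.18 to −0.03) in male nuclei, and the male interval leaves out 0. Dcx had 788 and 1126 UMIs, or 18.3 and 47.9 CPM, a log2 ratio of 1.39 (1.26 to 1.52), with 1.46 in female and 1.45 in male nuclei. It was the one member past the rule of size there, among 313 of 8431 genes (3.71%). Igfbpl1 had 15.0 and 26.3 CPM, 0.81 (0.65 to 0.97), or 0.195 and 0.331 UMIs per nucleus, the first close to the 0.152 of microglia-marker nuclei. With the UMIs per nucleus of those nuclei subtracted, an alternative chosen after the data were seen, its ratio was 2.28 and that of Dcx 1.49, so that the size of the Igfbpl1 difference in this cluster rests on the free-RNA level taken. Of the further young genes 11 had enough counts here and 10 lay above 0, with a median of 0.27, where 53.6% of all genes lay above 0. Stmn2, a microtubule regulator of growing axons, Dpysl3 and Nnat, neuronatin, met the rule of size. Plk5 had 373 and 62 UMIs, or 8.66 and 2.64 CPM, −1.70 (−2.13 to −1.32), and Tdo2 16.7 and 32.6 CPM, 0.96 (0.81 to 1.11). Lct was at −0.21 (−0.33 to −0.09) and Dsp at −0.15 (−0.24 to −0.07), with Dsp at 0.06 in female nuclei alone. Of the 16 further older genes, 12 lay below 0 and 4 above, with a median of −0.41. Rasgrp1 (−3.19), Ntng1 (−2.68), Mfsd4a and Trpc6 met the rule of size.

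Cluster 3 showed another pattern. Dcx had 73.1 and 75.9 CPM there, a log2 ratio of 0.05 (−0.06 to 0.17), and Calb1 121 and 90.3 CPM, −0.42 (−0.51 to −0.32). Tdo2 had 85 and 300 UMIs, or 5.78 and 16.3 CPM, a log2 ratio of 1.49 (1.15 to 1.86), and was the one member past the rule of size, among 180 of 8566 genes (2.1%). Lct had 16.1 and 29.5 CPM, 0.87 (0.65 to 1.10), so that it was higher here and lower in cluster 0. Plk5 had 7.75 and 4.62 CPM, −0.74 (−1.17 to −0.33), Igfbpl1 62.4 and 80.6 CPM, 0.37 (0.25 to 0.49), and Dsp 51.4 and 56.4 CPM, 0.13 (−0.00 to 0.27). Of the further young genes 6 lay above 0 and 9 below, with a median of −0.12, where 50.4% of all genes lay above 0. Of the 16 older genes 11 lay below 0, with a median of −0.19, and Rasgrp1, Ntng1, Mfsd4a and Trpc6 met the rule of size here too. In cluster 1 the early members had ratios of 0.03 for Dcx, 0.05 for Igfbpl1 and 0.28 for Calb2. Tdo2 and Igfbpl1 were thus higher and Plk5 lower in each of clusters 0 and 3, whereas Dcx, Calb1 and Lct differed in 1 of them or in opposite ways. In female nuclei of cluster 3 alone Plk5 was at −0.50 (−1.26 to 0.26), an interval that holds 0.

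**Figure D3:**
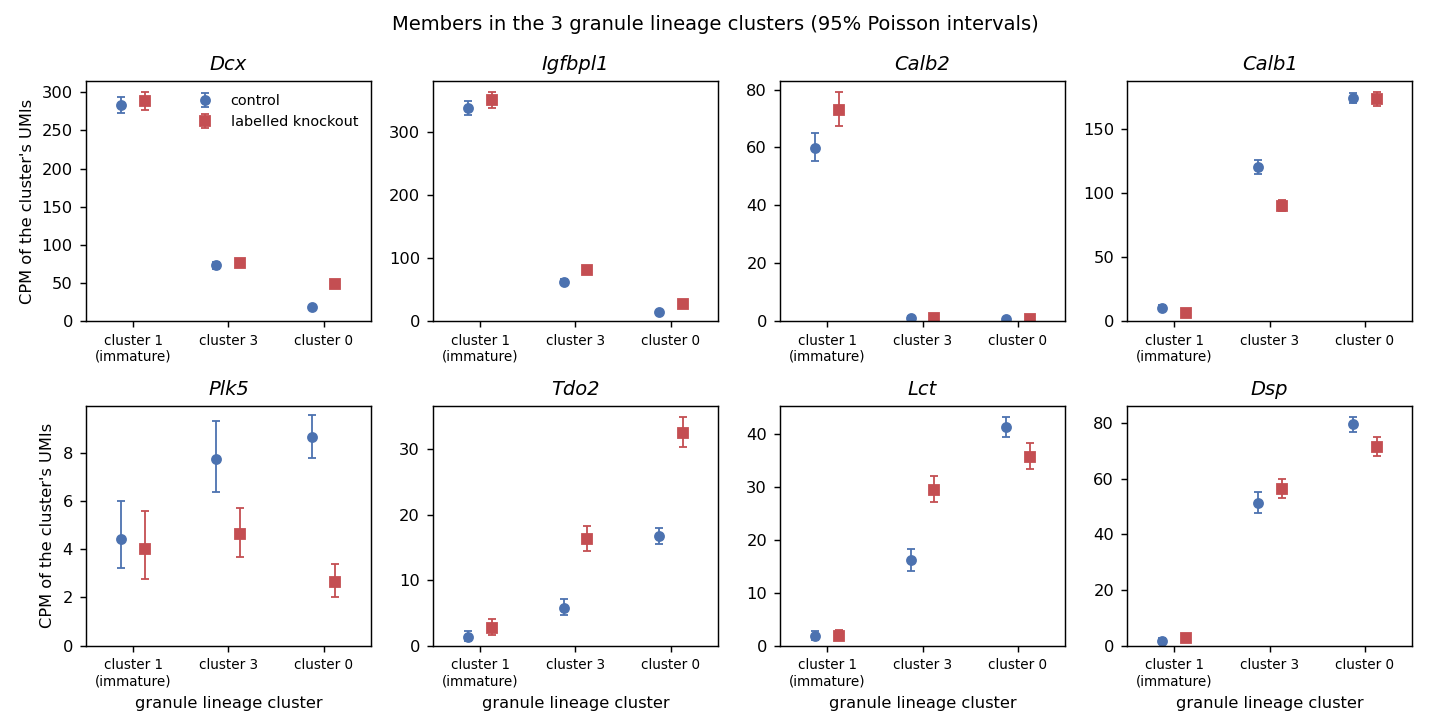
CPM of each member (y axes from 0, 95% Poisson intervals) in granule clusters 1, 3 and 0 of the control (circles) and the library labelled knockout (squares). In cluster 0 Calb1 is level at 174 CPM in both libraries, while Dcx is 18.3 against 47.9 CPM and Tdo2 16.7 against 32.6 CPM.

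The mix of clusters moved the members' sums, and by different amounts. Over the 3 granule clusters together, Calb1 had a log2 ratio of −0.27, which was −0.08 when the labelled knockout's 3 cluster levels were weighted by the control's shares of UMIs. Dsp went from −0.19 to −0.09 and Lct from −0.11 to −0.03 by the same weighting. Dcx went from 0.52 to 0.38, Igfbpl1 from 0.48 to 0.24 and Calb2 from 0.48 to 0.29. Plk5 and Tdo2 moved away from 0, from −1.13 to −1.27 and from 0.84 to 1.03. The early median was 0.48 and then 0.29, and the late median −0.19 and then −0.08.

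Dcx and Calb1 were also read in the same nucleus, after each was thinned to 5000 UMIs. In the gate, 4406 control and 3110 labelled knockout nuclei were deep enough, while most nuclei of the immature class were not. Dcx without Calb1 was found in 14.3% (13.3% to 15.4%) of control and 20.1% (18.7% to 21.6%) of labelled knockout nuclei, a difference of 5.83 percentage points. It was 3.16 points in female and 6.12 in male nuclei, and 3.31 with the gate that ignores Gad1. Calb1 without Dcx was found in 25.6% and 19.3%. Nuclei with both made up 3.38% (2.87% to 3.96%) and 5.24% (4.48% to 6.08%). This difference was not seen at a lower depth, where more nuclei were also kept. Thinned to 2000 UMIs, which kept 5903 and 4855 nuclei, the gate had both genes in 0.881% (0.659% to 1.15%) and 0.844% (0.607% to 1.14%), while Dcx without Calb1 stood at 13.5% and 19.7%. In cluster 0 at 5000 UMIs, nuclei with both made up 3.18% (2.60% to 3.84%) and 9.26% (7.98% to 10.7%), and nuclei with Dcx alone 4.03% and 11.5%. In cluster 3, nuclei with both made up 10.8% (9.17% to 12.5%) and 8.57% (7.32% to 9.94%), whose intervals overlap. If the genes were seen independently of each other, the shares of Dcx (7.21% and 20.7%) and Calb1 (50.6% and 50.4%) in cluster 0 would give both in 3.65% and 10.4% of nuclei, values that lie within the intervals of the shares seen. The higher share with both in the library labelled knockout thus went with its higher share with Dcx, and at 2000 UMIs it was 0.755% and 2.31%. Read by list, 33.0% and 24.7% of gated nuclei held a late member and no early one, 19.6% and 24.5% an early member and no late one, and 10.1% and 13.9% held both kinds. At 2000 UMIs both kinds were found in 2.85% (2.44% to 3.30%) and 3.09% (2.62% to 3.62%), whose intervals overlap. In cluster 0 a late member without an early one was found in 64.7% (63.1% to 66.3%) of control and 50.4% (48.1% to 52.7%) of labelled knockout nuclei, against 41.5% and 39.4% at 2000 UMIs. Without thinning, and over all gated nuclei, Dcx was seen in 30.4% and 40.9% and Calb1 in 32.4% and 23.0%.

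**Figure D4:**
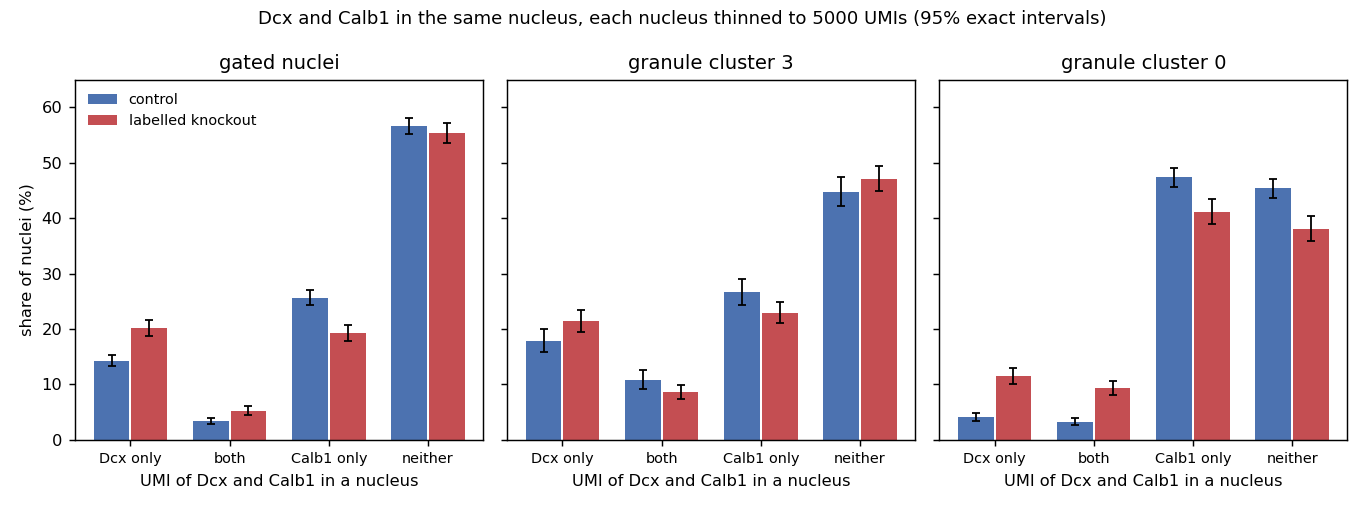
Share of nuclei (y axis, percent, 95% exact binomial intervals) with a UMI of Dcx only, both genes, Calb1 only or neither, after thinning each nucleus to 5000 UMIs, in gated nuclei and in granule clusters 3 and 0. In cluster 0 the bars for both genes stand at 3.18% and 9.26%.

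Across the hippocampus the early members were not confined to young granule nuclei. Named classes pool their clusters here. Among 22 such classes or unnamed clusters with at least 100 nuclei in each library, Dcx was highest in immature dentate granule-like nuclei in both libraries. Inhibitory-like nuclei had 143 and 150 CPM. The cycling progenitor-like class held 3 clusters, and 1 of them had 77 and 86 nuclei and median depths of 45305 and 46603 UMIs. There the fixed cycling markers had a mean log2 fold of 0.90 over all other nuclei, against 5.99 and 6.83 in the class's other clusters. None of these markers was among its leading genes, which was also so in some other named clusters. This cluster gave 71.3% and 77.8% of the UMIs of the class, so the class is described here without it. The remaining 380 control and 362 labelled knockout nuclei had 235 and 235 CPM of Dcx, a log2 ratio of −0.00 (−0.23 to 0.22), which is more Dcx than in inhibitory-like nuclei. Of these, cluster 21 (314 and 289 nuclei), whose leading genes began with Eomes, had 316 and 325 CPM. Cluster 33 (66 and 73 nuclei) had 54.6 and 64.8 CPM. The levels of cluster 21 lay above the 293 and 301 CPM of immature nuclei, with intervals that overlap. Dcx had a log2 ratio of 0.07 (−0.01 to 0.14) in inhibitory-like and 0.16 (−0.03 to 0.35) in oligodendrocyte precursor-like nuclei. Pyramidal nuclei differed more. In CA1 pyramidal-like nuclei Dcx had 358 and 852 UMIs, or 11.7 and 45.0 CPM, a log2 ratio of 1.94 (1.76 to 2.13), with 2.19 in female and 1.83 in male nuclei, where 332 of 8150 genes met the rule of size (4.07%). Of the 12 genes of handling and activity 6 had enough counts there and 5 lay below 0, with a median of −0.60. Egr1, an early-response transcription factor, was past 2-fold lower. The median over all 12 genes, with those of few counts, was 0.02. The part of these genes in the Dcx ratio was not tested. In CA2 pyramidal-like nuclei Dcx had 16.9 and 51.9 CPM, 1.61 (1.16 to 2.09), where 207 of 6038 genes met the rule of size (3.43%). In CA3 pyramidal-like nuclei, the targets of mossy fibers, it had 35.7 and 59.2 CPM, 0.73 (0.62 to 0.85). The interval of the CA1 ratio lay above those of the granule sets given here. Median-of-ratios factors shifted all ratios by −0.11 in CA1 and −0.12 in CA2 pyramidal-like nuclei, with Dcx at 1.83 and 1.48.

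Calb2 was also highest in immature dentate granule-like nuclei in both libraries. Igfbpl1 in cycling progenitor-like nuclei was 419 and 494 CPM, 0.24 (0.08 to 0.40), without the deep cluster, above the 358 and 375 CPM of immature nuclei, and 149 and 147 CPM with it. Cluster 21 had 591 and 721 CPM of Igfbpl1, against 33.6 and 69.4 CPM in cluster 33. Calb2 in Cajal-Retzius-like nuclei was 32.6 and 58.0 CPM from 34 and 67 UMIs, and in cycling progenitor-like nuclei without the deep cluster 32.5 and 19.3 CPM. Of the late members, Calb1, Tdo2, Lct and Dsp were highest in dentate granule-like nuclei in both libraries, though for Tdo2 the intervals overlapped those of an unnamed cluster with only 2 and 3 Tdo2 UMIs. Lct was next in CA1 pyramidal-like nuclei, at 18.6 and 21.1 CPM. Plk5 was highest in dentate granule-like nuclei of the control, at 8.41 CPM, with the same overlap, and in the library labelled knockout stood at 3.66 CPM in immature and 3.53 CPM in dentate granule-like nuclei, whose intervals overlap. Calb1 also had a log2 ratio of −0.87 (−1.10 to −0.64) in CA1 pyramidal-like nuclei, from 19.8 and 10.8 CPM, and 0.13 (−0.01 to 0.27) in inhibitory-like nuclei, from 40.4 and 44.2 CPM. In unnamed cluster 13 Calb1 met the rule of size, at 10.9 and 5.35 CPM, −1.02, and so did Dcx, at 35.7 and 82.9 CPM, 1.21. There 186 of 8183 genes met it higher and 69 lower. Dcx also met it in unnamed cluster 6, at 27.5 and 58.3 CPM, where 181 of 8497 genes met it higher and 49 lower.

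**Figure D5:**
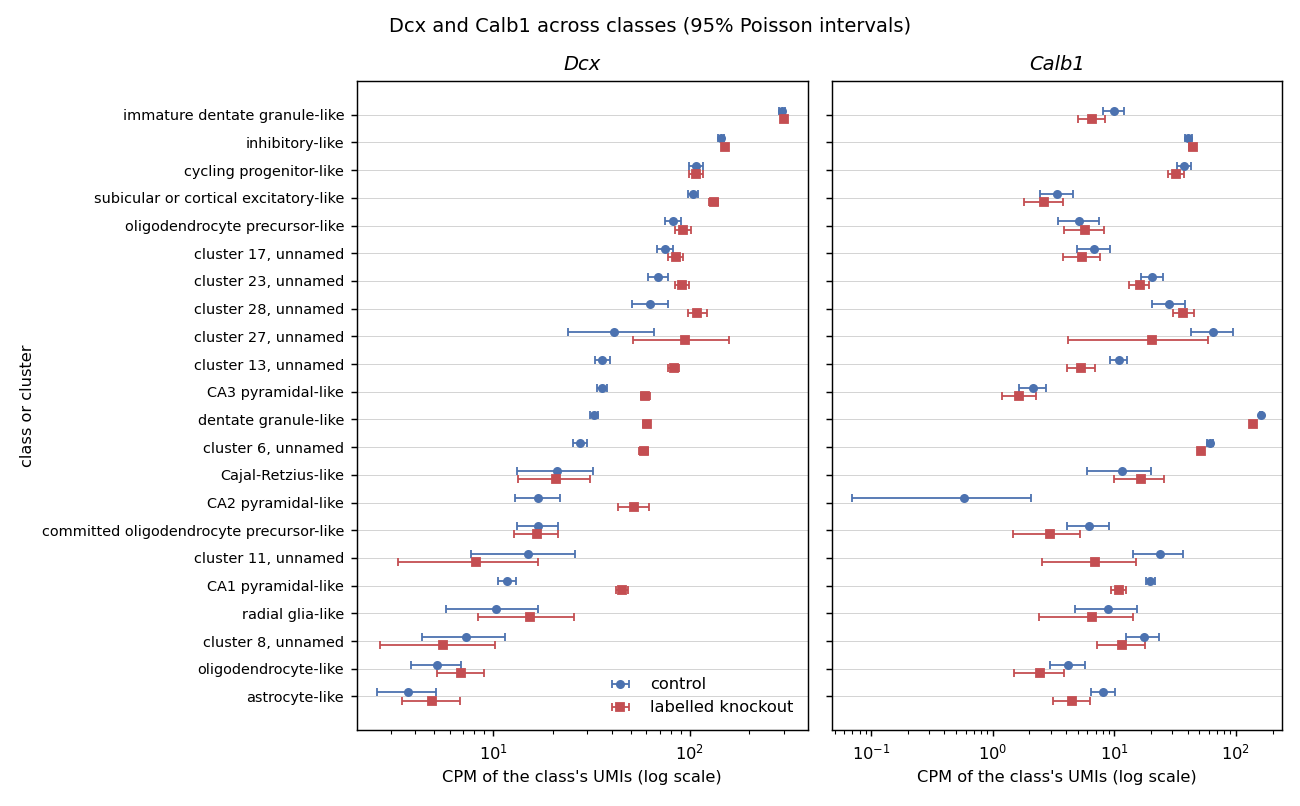
CPM of Dcx (left) and Calb1 (right) on log axes, with 95% Poisson intervals, in 22 classes or clusters of the control (circles) and the library labelled knockout (squares), in order of Dcx in the control; a class with no UMI has no point, and the cycling progenitor-like class is drawn with its deep cluster. Dcx is 11.7 against 45.0 CPM in CA1 pyramidal-like nuclei and 143 against 150 CPM in inhibitory-like nuclei.

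The genes most like each member were sought over 14 named classes in each library, 28 points that share libraries and depth, among 12539 genes, by Pearson correlation of log2(CPM + 1). Dcx was most like Frmd3 (0.94), Gm15398 (0.90) and Cracd (0.90), and Igfbpl1 most like Mcmbp (0.92), Rprd1b (0.92) and Mex3a (0.91). Calb2 was most like Ptcd3 (0.92), Bclaf3 (0.91) and G3bp2 (0.90), and Calb1 most like Gabrd (0.89), Slc30a3 (0.83) and Cemip (0.81). Tdo2 was most like Dsp (0.88), Scnn1a (0.83) and Gmnc (0.82), and Dsp most like Gmnc (0.89), Gm35339 (0.88) and Or13a22 (0.88). Lct was most like Btbd9 (0.90), Gm50250 (0.86) and Gm12339 (0.85). Plk5, whose own CPM stayed under the minimum in every class, reached 0.80 with Gcfc2, Slc39a6 and Zfp148. Over the 13 classes left without the cycling progenitor-like one, the 3 genes were the same for Plk5, Tdo2 and Lct, 2 of 3 for Dcx, Calb2, Calb1 and Dsp, and 1 of 3 for Igfbpl1. The late members Tdo2 and Dsp were thus alike across classes, and both had their peak in dentate granule-like nuclei. In each of the other named classes Tdo2 had 30 UMIs or fewer, so its CPM there rest on few counts. The ratios of Tdo2 and Dsp in dentate granule-like nuclei had opposite signs, except in female nuclei, where Dsp was at 0.01.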

How the data were processed

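Single-nucleus RNA from 2 pooled libraries was analysed, 1 control and 1 labelled knockout. The values the authors deposited are unnormalised UMI counts of each gene in each nucleus, from Cell Ranger 8.0.1 on mm39, per the submitters' processing notes. Nuclei with fewer than 500 genes or more than 5% mitochondrial UMIs, and Scrublet doublets (scanpy 1.11.5, expected rate 0.1; 3277 and 2474 calls), were left out. Gated nuclei had at least 1 Prox1 UMI and no Gad1 or Gad2 UMI. UMIs were summed per library, scaled to CPM of the set, and compared as log2 ratios with 0.5 UMI added. Intervals were exact conditional binomial for ratios, Poisson for CPM and Clopper-Pearson for shares; they cover counting error only, not mice or preparation. No test was possible with 1 library per group.

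Nuclei were clustered (3000 variable genes, 30 components, 15 neighbours, Leiden resolution 1, leidenalg 0.10.2) without the 8 members, Xist, Tsix, Y-linked and mitochondrial genes, and named "-like" from fixed markers. Clusters 8 and 11 stayed unnamed for low depth with no marker among their leading genes. Female nuclei had at least 2 Xist UMIs and no Y-linked UMI, male nuclei the reverse. TMM factors came from edgeR 4.0.16. No member overlapped another counted gene in the GRCm38 annotation.

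The members and gene lists were chosen with earlier results of these data known. Named were the 8 members, list genes past the rule of size (up to 6 per list), the 3 genes most like each member, and Cic and Prox1 as checks; Prox1 had a log2 ratio of 0.05 in the gate. The rule of size was tested on simulated counts with counting error alone and changes larger than its own cut. This does not show how the rule acts near the cut or between pools. Alternatives are given at the end.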

Additional observations from a re-analysis of the deposited data

How the results depend on the processing

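In the gate, all 8 members kept their sign under the 12 alternatives run (other gates, filters, sexes, depth, scaling and free-RNA subtraction). The early median ranged from 0.11 with nuclei thinned to 5000 UMIs to 0.61, and the late median from −0.48 to −0.21, the last with a gate that ignored Gad1; it was −0.23 with the gate read after thinning. Genes past 2-fold numbered 190 in granule-like clusters only, 203 in female nuclei and 588 with at least 20 UMIs and no minimum CPM, against 113. The difference in nuclei with Dcx and without Calb1 was 3.31 points with the gate that ignored Gad1 and 3.16 in female nuclei. In dentate granule-like nuclei the early median was 0.72 when thinned and the late median −0.27 in male nuclei. The cause of these shifts was not tested.

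Signs turned mostly in immature dentate granule-like nuclei, where late members had few UMIs. With median-of-ratios factors the early median was −0.015, as was Igfbpl1, and Dcx was −0.041; with TMM factors Dcx was −0.022. The late median there was 0.052 clustered without changed genes, 0.59 at Leiden resolution 2, 0.28 in female nuclei, 0.082 in male nuclei and 0.59 when thinned. In the same class Dcx was −0.044 in female nuclei, Igfbpl1 −0.010 when thinned and Calb1 0.082 in male nuclei. Plk5 was 0.069 at resolution 2, 0.28 in female nuclei and 0.59 when thinned, and Lct 0.052 without changed genes, 0.59 at resolution 2 and 0.16 in female nuclei. Dsp in dentate granule-like nuclei was 0.011 in female nuclei. In cluster 0 Calb1 was 0.076 in female nuclei, 0.035 in gated nuclei and 0.011 with free RNA subtracted, and Dsp 0.060 in female nuclei, and in cluster 3 Dsp was −0.064 in male and −0.046 in gated nuclei.

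No paired analysis was possible because each group was 1 library, which also leaves no replicate to omit. With 1 pool per group, genotype cannot be told apart from pool, preparation or depth.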
